A study of Mus musculus with 12 samples.

Results

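The subject is the baseline transcriptome of unmodified tubule cells of the mouse kidney: 3 wild type libraries of the 12 in the series, chosen by their titles and described without a comparison with the other libraries. Primary tubular epithelial cells came from the kidney cortex of C57BL/6 mice, and the genotype label of the wild type animals is Setd2fl/fl, so they carry a floxed Setd2 allele and no Cre driver. The remaining libraries carry the Ksp1.3/cre driver with Setd2 deletion, MYC overexpression or both, and were not used here. The design text counts 3 mice in each genotype, so the libraries were treated as separate animals. The labels used here state neither the sex nor the age of the mice, nor how long the cells were kept before lysis. RNA was selected for poly(A) tails and sequenced from both ends as directional libraries, and the table gives read counts for 44792 gene symbols.

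Along the nephron the proximal tubule takes back most of the filtered sodium, phosphate, glucose, amino acids and protein, and secretes organic anions and cations. It runs largely on mitochondrial oxidation of fatty acids and makes glucose from lactate and amino acids. The thick ascending limb takes up sodium chloride without water, the distal convoluted tubule and connecting tubule adjust sodium, calcium and magnesium, and the collecting duct holds principal cells, which move water and sodium, and intercalated cells, which move acid and base.

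Promoters of a gene for each of these settings are shown because their transcripts anchor the levels that follow: Kap, the most abundant nuclear transcript, Slc34a1 of the proximal tubule, Umod of the thick ascending limb and Aqp2 of the principal cell. Each sequence is RefSeq's GRCm38.p6 sequence from 250 bases before to 50 bases after the annotated start, read 5′ to 3′ on the strand of the gene. Capitals mark matches on either strand to TATAAA (reverse complement TTTATA), the TATA box letters. The windows are chr6:133853618-133853917 on the minus strand for Kap, chr13:55399398-55399697 on the plus strand for Slc34a1, chr7:119479213-119479512 on the minus strand for Umod and chr15:99578806-99579105 on the plus strand for Aqp2.
Kap: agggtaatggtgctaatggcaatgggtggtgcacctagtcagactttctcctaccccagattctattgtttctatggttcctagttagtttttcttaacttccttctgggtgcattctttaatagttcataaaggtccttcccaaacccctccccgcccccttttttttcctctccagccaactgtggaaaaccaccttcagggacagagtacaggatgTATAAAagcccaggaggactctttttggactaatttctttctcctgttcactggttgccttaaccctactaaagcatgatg
Slc34a1: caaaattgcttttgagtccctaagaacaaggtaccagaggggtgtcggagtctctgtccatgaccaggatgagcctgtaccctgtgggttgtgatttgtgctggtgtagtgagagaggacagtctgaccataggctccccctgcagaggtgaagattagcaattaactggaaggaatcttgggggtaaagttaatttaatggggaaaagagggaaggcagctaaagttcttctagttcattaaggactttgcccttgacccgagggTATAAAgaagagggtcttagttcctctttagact
Umod: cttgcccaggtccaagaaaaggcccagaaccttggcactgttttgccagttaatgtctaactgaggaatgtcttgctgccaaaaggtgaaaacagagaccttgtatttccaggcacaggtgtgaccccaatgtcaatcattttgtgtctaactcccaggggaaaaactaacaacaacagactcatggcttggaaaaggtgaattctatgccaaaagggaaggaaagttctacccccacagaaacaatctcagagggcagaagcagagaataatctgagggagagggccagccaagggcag
Aqp2: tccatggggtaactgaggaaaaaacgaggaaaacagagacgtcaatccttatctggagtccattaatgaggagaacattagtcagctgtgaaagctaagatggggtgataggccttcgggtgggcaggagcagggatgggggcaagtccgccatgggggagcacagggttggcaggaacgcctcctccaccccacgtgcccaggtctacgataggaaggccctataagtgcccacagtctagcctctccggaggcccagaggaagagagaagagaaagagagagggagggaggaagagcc
The Kap window held TATAAA beginning 31 bases before the start, and the Slc34a1 window held it 17 bases after the start. The Umod and Aqp2 windows did not hold these letters. They stood in 8 of the 35 promoters on record for a list of 40 proximal tubule genes (22.9%) and in 0 of 11 for a list of 15 thick ascending limb genes. TATAAA stood in 11 of the 29 promoters on record for the 40 highest nuclear genes (37.9%), against 8.68% of the promoters of detected nuclear genes and 15.7% of all. These are matches of letters, not measured binding sites.

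The libraries held 32403608, 22997852 and 44227191 counts in wild type replicates 1, 2 and 3. Levels are given in TPM units, that is, counts divided by the gene length in the deposited table and scaled to the same sum in each library, so that genes can be set side by side. A gene was counted as detected at a median of 1 TPM or more, which 12879 genes reached, while 18388 had no count in any wild type library. Pearson's r of log2(TPM + 1) over the detected genes was 0.988 between replicates 1 and 2, 0.978 between 1 and 3 and 0.976 between 2 and 3, across genes, which are not independent replicates. No pair was close enough to be 1 library deposited again, since the median chi-square of a pair was 3.43 to 6.41 where counting noise alone gives 0.45. Because TPM values are shares of a library, a high level of a few genes lowers the values of all others. Setd2, the histone methyltransferase gene whose allele is floxed in these mice (chr9:110532597-110618633), stood at 11.8, 13.8 and 14.9 TPM, and Myc stood at 1.92 ± 0.0599 TPM (SD, n = 3).

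A small number of transcripts filled most of each library. The 50 highest genes held 52.4%, 52.7% and 55.9% of TPM in replicates 1, 2 and 3, and 70, 73 and 66 genes reached 1000 TPM. The 37 genes of the mitochondrial genome held 34.2%, 35.9% and 39.8% of TPM, 36.6% ± 2.91 (SD, n = 3). With genes that overlap another gene left out, the share was 20.2%. That setting drops ND1, COX1, ND2, ND5 and ND4, although a neighbour covers only 0.193% to 0.768% of the span of each. By count, before scaling by length, they held 23.9%, 24.1% and 26.9%. Among the 40 highest genes, 10 lie on the mitochondrial genome and 11 belong to the proximal tubule list.

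Cytochrome b of respiratory complex III (CYTB) was the highest transcript, at 85409, 91112 and 97105 TPM, 91209 ± 5848 (SD, n = 3). ND1, a subunit of complex I, stood at 64851, 71549 and 77720 TPM and did not overlap it. COX1, the catalytic subunit of complex IV, stood at 58486, 54119 and 67112 TPM, a range that overlapped that of ND1. The complex I subunits ND2, ND5 and ND4 had medians of 44359, 31134 and 28522 TPM. The mitochondrial ribosomal RNAs Rnr2 and Rnr1 had medians of 13122 and 12536 TPM. ND6, which is encoded on the other mitochondrial strand, stood at 4693, 3972 and 2050 TPM, lowest in replicate 3. TrnI, a mitochondrial transfer RNA of 69 bases, had a median of 1771 TPM, a level that rests on a length far below that of the other genes.

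Other subunits of the same complexes were listed at far lower levels. COX2 stood at 246, 234 and 237 TPM, COX3 at 141, 141 and 160 TPM, and ATP6 of the ATP synthase at 186, 194 and 270 TPM. ND3 and ND4L had medians of 63.0 and 54.0 TPM. These 5 genes also had near-complete copies elsewhere in the annotation: 97.6% to 99.9% of their 100-base windows occurred in another GENCODE M21 transcript. The share was 0% for CYTB, ND1, ND5 and ND6, 3.19% for ND2, 30.8% for COX1 and 60.8% for ND4. ATP8 went against that split, with a share of 0% and a median of 77.2 TPM. It lies between COX2 and ATP6, and a copy outside annotated transcripts would not enter this share. The handling of reads that match several genes is not stated in these sources, and the part of the copies in these low levels was not tested, so the levels of COX2, COX3, ATP6, ND3 and ND4L are uncertain.

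**Figure D1:**
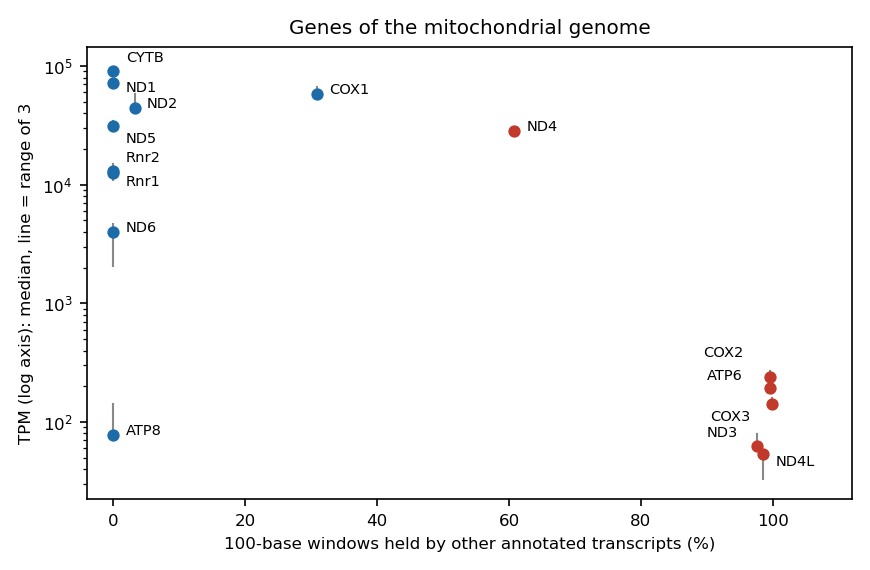
Median level (TPM, log axis) of 15 genes of the mitochondrial genome against the percentage of their 100-base windows that other annotated transcripts also hold; lines span the 3 wild type libraries, and red points have over 50% of windows shared. The 5 genes at 97.6% or more sit at 54.0 to 237 TPM, and ATP8 is as low at 0%.

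Kap, the kidney androgen-regulated protein of the mouse proximal tubule, was the highest nuclear transcript (chr6:133849855-133853667, GRCm38, minus strand). It stood at 51746, 50797 and 33152 TPM in replicates 1, 2 and 3, 45232 ± 10472 (SD, n = 3), with replicate 3 below the others. Gpx3, a secreted glutathione peroxidase that the proximal tubule makes for the blood, stood at 41769, 36671 and 45777 TPM and overlapped Kap.

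Lower down, the levels formed a gradual slope. Of the 29 pairs of neighbours among the 30 highest nuclear genes, the ranges of 26 overlapped. Among the few exceptions was Slc27a2, an acyl-CoA synthetase and fatty acid carrier, above Cyp2e1. Iron storage was represented by the ferritin chains Fth1, at 5750, 4025 and 4373 TPM, and Ftl1, at 1851, 1722 and 2063 TPM. Of the Ftl1 windows, 60.4% occurred in other transcripts, so its level is less certain. Miox, which opens the inositol ring and is expressed mainly in the kidney, stood at 4031, 3194 and 3184 TPM. Gpx1, a cytosolic glutathione peroxidase, had 2930, 2374 and 2765 TPM, and Prdx5, a mitochondrial peroxiredoxin, had 3157, 2563 and 2520 TPM. Sepp1, the plasma selenium carrier selenoprotein P, had 3053, 3690 and 2528 TPM.

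The aldo-keto reductases Akr1a1 and Akr1c21 had medians of 2960 and 2446 TPM, and the cytochrome P450 enzymes Cyp4b1 and Cyp2e1 had 3185 and 1957 TPM. Gatm, which makes the creatine precursor guanidinoacetate, stood at 1840, 1894 and 2319 TPM. Tcn2, the blood carrier of vitamin B12, had a median of 1714 TPM and the acyl-CoA binding protein Dbi 1699 TPM. The nuclear-encoded complex IV subunits Cox6a1 and Cox4i1 had medians of 1614 and 1595 TPM.

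**Figure D2:**
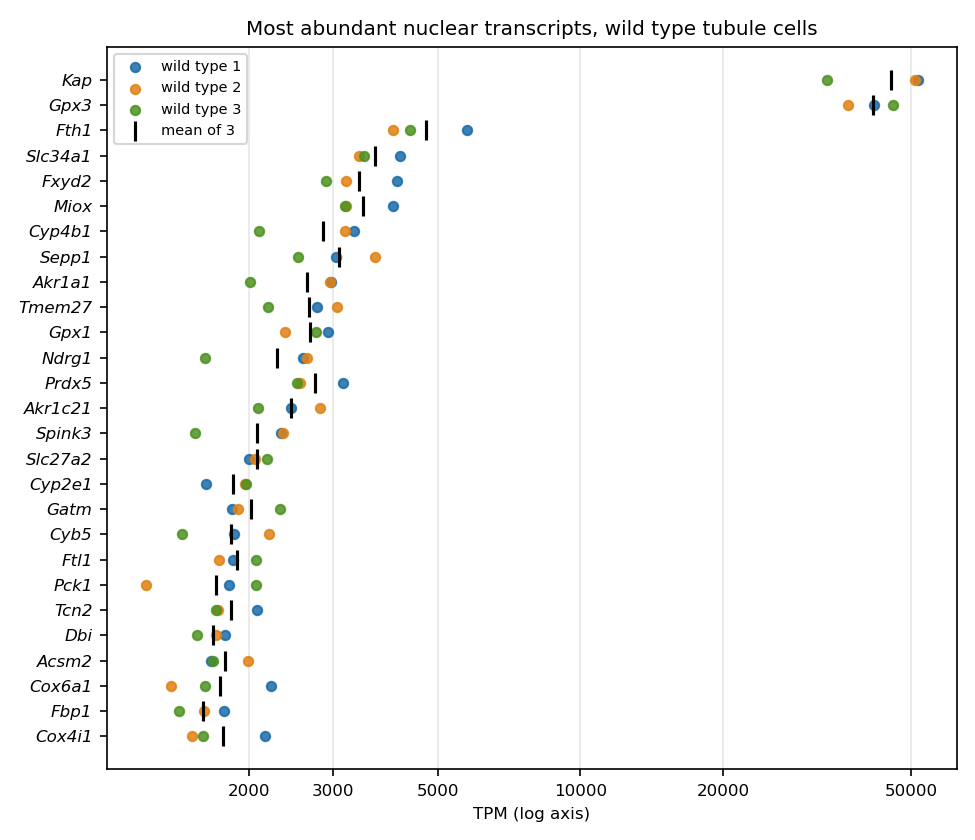
Level (TPM, log axis) of the named nuclear genes among the 40 highest genes in each of the 3 wild type libraries; the black tick is the mean. Kap and Gpx3 lie at 33152 TPM or more, and every other gene shown lies at 5750 TPM or less.

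The labelled tubule identity held for its markers. The proximal tubule list had 39 of its 40 members detected, with a median member of 457 TPM against 10.5 TPM over all detected genes. Slc34a1, the sodium-phosphate cotransporter NaPi-IIa of the proximal brush border (chr13:55399622-55414695), stood at 4168, 3416 and 3495 TPM, 3693 ± 414 (SD, n = 3). Lrp2, the endocytic receptor megalin (chr2:69424335-69586067), stood at 296, 342 and 427 TPM, 355 ± 66.5. Umod, the uromodulin secreted by the thick ascending limb (chr7:119462708-119479262), stood at 1782, 1192 and 1218 TPM, 1397 ± 333. Aqp2, the vasopressin-regulated water channel of the principal cell (chr15:99579056-99584545), stood at 149, 107 and 119 TPM, 125 ± 21.9. Another gene covers 100% of the Aqp2 span. All of these markers were detected in every library, so the cells included distal and collecting duct transcripts beside proximal ones. In bulk libraries, fewer cells of a type and less RNA per cell cannot be told apart, and a list's level is not a share of cells.

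Members of the proximal tubule list summed to 8.78%, 8.50% and 6.64% of TPM in replicates 1, 2 and 3, and Kap alone made up 56.7% of that sum. The list held 35 members at 100 TPM or more. Its only undetected member was Mep1b, a meprin subunit of the brush border, at 0.663, 0.895 and 0.557 TPM, while its partner subunit Mep1a had 576, 582 and 503 TPM. Pdzk1, a scaffold protein of the brush border, was also low for the list, at 2.63, 2.59 and 4.36 TPM, with 15.8% of its span covered by other genes. Hnf4a, a transcription factor of the proximal tubule, stood at 263, 325 and 278 TPM. Ggt1 and Dpep1, which break down glutathione at the brush border, had medians of 737 and 187 TPM. Genes of the early convoluted part were high as a set, with 6 of 6 members at 100 TPM or more, among them Slc5a2. The straight part was represented more weakly, with a median member of 42.5 TPM. Slc7a13, an amino acid transporter of the late segment in mouse, led that list at 302, 393 and 146 TPM and was lowest in replicate 3.

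The thick ascending limb list had 14 of 15 members detected and a median member of 22.4 TPM, with Umod making up 53.0% of its sum. Egf, the precursor of epidermal growth factor made in the distal nephron, stood at 610, 480 and 715 TPM. Slc12a1, the sodium-potassium-chloride cotransporter NKCC2 that defines the segment, stood at 138, 114 and 138 TPM. Kcnj1, the potassium channel ROMK that recycles potassium for it, had 93.6, 102 and 96.4 TPM, and another gene covers 100% of its span. Bsnd, the chloride channel subunit barttin, had a median of 22.4 TPM. The paracellular claudins Cldn10, Cldn16 and Cldn19 had medians of 109, 10.1 and 7.01 TPM. Enox1 had 0, 0 and 3 counts. Of 4 macula densa markers, 3 were undetected and Avpr1a, a vasopressin receptor, stood at 4.87, 5.48 and 6.08 TPM. Nos1 had 1, 0 and 15 counts, and Ptgs2 stood at 0.222, 0.190 and 0.228 TPM.

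The distal convoluted tubule list had 8 of 8 members detected with a median member of 24.1 TPM. Slc12a3, the thiazide-sensitive sodium-chloride cotransporter, led it at 258, 268 and 321 TPM. Wnk4, a kinase that controls that cotransporter, had 52.7, 47.7 and 54.1 TPM, and the calcium-binding protein Pvalb had 38.3, 33.7 and 24.8 TPM. The connecting tubule list had 5 of 5 detected and the higher median member of 204 TPM. This rested on Klk1, tissue kallikrein, at 1574, 1361 and 1566 TPM, S100g, calbindin-D9k, at 1516, 1460 and 1146 TPM, and Calb1, calbindin-D28k, at 158, 218 and 204 TPM. Its calcium entry channel Trpv5 had only 5.65, 6.37 and 6.94 TPM. Another gene covers 100% of the S100g span, and the part of the counting in the S100g level was not tested.

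In the collecting duct, 8 of 10 principal cell markers and 15 of 15 intercalated cell markers were detected, with median members of 13.8 and 20.5 TPM. Hsd11b2, which protects the mineralocorticoid receptor from glucocorticoids, stood at 106, 82.4 and 81.7 TPM. Of the epithelial sodium channel, Scnn1a had 37.4, 32.4 and 60.3 TPM and Scnn1g 19.8, 18.2 and 20.4 TPM. Scnn1b, the remaining subunit, had 4, 6 and 6 counts, which is 0.0762, 0.166 and 0.0867 TPM. Among intercalated markers, the proton pump subunit Atp6v0a4 stood highest at 181, 185 and 189 TPM, but it is also made in the proximal tubule. Pendrin (Slc26a4) of the base-secreting cells had 29.0, 28.7 and 29.5 TPM, and the anion exchanger Slc4a1 of the acid-secreting cells had 8.91, 8.68 and 12.9 TPM. Foxi1, the transcription factor of intercalated cells, had 17.4, 12.2 and 19.2 TPM.

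**Figure D3:**
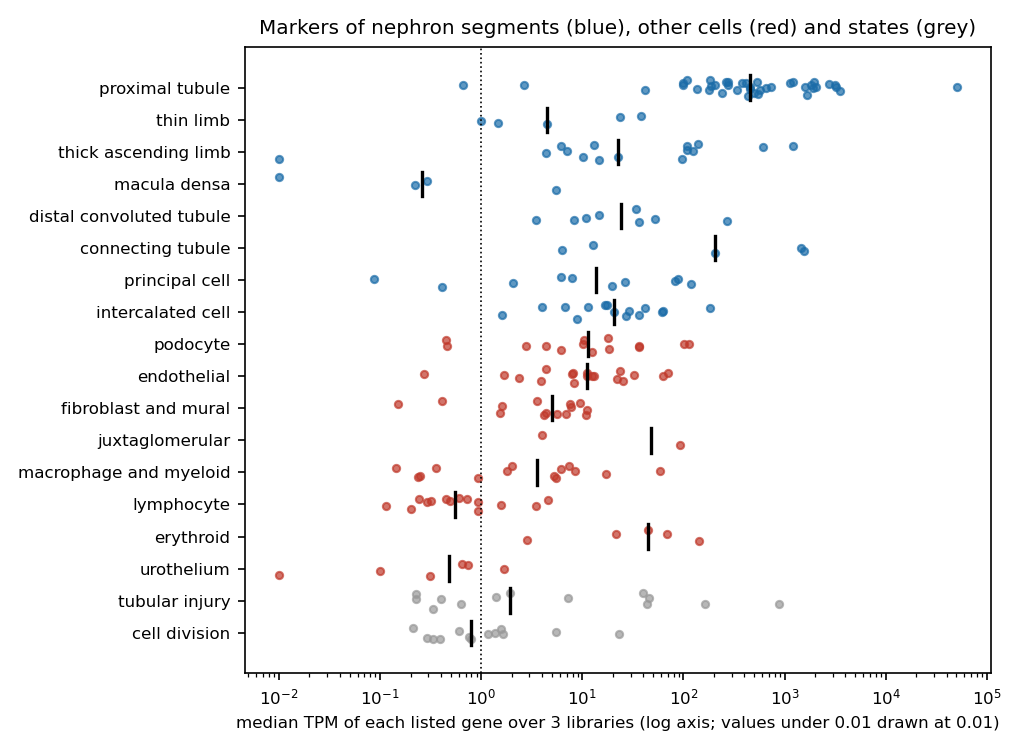
Median level over the 3 wild type libraries (TPM, log axis) of each listed marker, 1 point a gene, with a black tick at the median of each list and a dotted line at 1 TPM. Proximal tubule markers centre on 457 TPM, and the lymphocyte, urothelium and cell division lists centre below 1 TPM.

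Solute carriers, the transporters named Slc or Slco, numbered 391 genes in 50 families, of which 257 were detected and 50 reached 100 TPM. They held 2.63%, 2.48% and 2.35% of TPM, and the 25 highest made up 66.4% of that sum. By family sum, the mitochondrial carriers Slc25 (4189 ± 453 TPM, SD, n = 3), the organic ion transporters Slc22 (3826 ± 462 TPM) and the phosphate cotransporters Slc34 (3778 ± 428 TPM) had overlapping ranges, although Slc25 was the highest of these in each library. The Slc34 sum was 97.7% Slc34a1, whereas Slc22a12 made up 29.0% of Slc22 and Slc25a3 22.7% of Slc25. Among the 25 highest members, 20 of 24 pairs of neighbours overlapped in range. The pairs that stood apart were Slc34a1 above Slc27a2, Slc27a2 above Slc22a12, Slc5a2 above Slc17a1, and Slc47a1 above Slc9a3r1, which is a scaffold protein and no carrier.

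Glucose uptake is shared by a high-capacity cotransporter of the early tubule, SGLT2 (Slc5a2), and a high-affinity one of the late tubule, SGLT1 (Slc5a1). Slc5a2 stood at 814, 656 and 645 TPM, and Slc5a1 at 28.9, 23.0 and 28.4 TPM. The basolateral exit carrier GLUT2 (Slc2a2) had 221, 202 and 206 TPM, while GLUT1 (Slc2a1) had 1.98, 1.32 and 1.15 TPM. For phosphate, NaPi-IIc (Slc34a3) had 101, 79.1 and 71.9 TPM, far below Slc34a1. Kl, the co-receptor Klotho, and Fgfr1, a receptor of FGF23, differed widely in listed level. Kl stood at 314, 347 and 346 TPM and Fgfr1 at 0.291, 0.298 and 0.286 TPM. Other genes cover 49.8% of the Fgfr1 span, and the part of the counting in its low level was not tested.

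All 16 genes of an amino acid transport list were detected, with a median member of 171 TPM. Slc6a19, the neutral amino acid transporter B0AT1, stood at 379, 375 and 424 TPM. Its partner Tmem27, collectrin, which brings it to the brush border, was much higher at 2777, 3063 and 2190 TPM. The cystine and dibasic transporter is built of Slc3a1, with 453, 405 and 437 TPM, and Slc7a9, with 199, 167 and 180 TPM. The basolateral light chains Slc7a7 and Slc7a8 had medians of 205 and 184 TPM, beside their heavy chain Slc3a2 at 200 TPM.

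An organic ion transport list had 21 of 23 members detected and a median member of 125 TPM. The urate transporter Slc22a12 led at 1201, 1232 and 897 TPM. The basolateral anion uptake carriers OAT1 (Slc22a6) and OAT3 (Slc22a8) stood at 494, 458 and 500 TPM and at 595, 456 and 453 TPM, and did not separate. The cation carrier OCT2 (Slc22a2) had a median of 195 TPM, and the apical exporter MATE1 (Slc47a1) 255 TPM. Abcg2, an apical exporter of urate and drugs, had 485, 495 and 404 TPM, whereas the drug exporter Abcb1a had 0.335, 0.471 and 0.437 TPM.

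**Figure D4:**
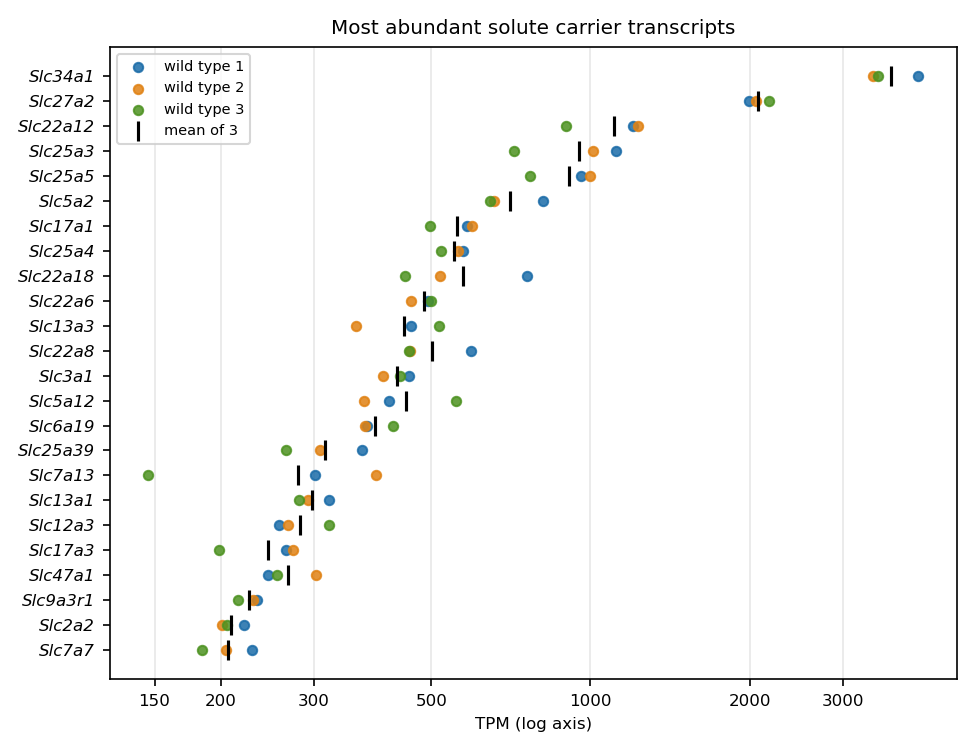
Level (TPM, log axis) of the named solute carrier genes among the 25 with the highest medians in each of the 3 wild type libraries; the black tick is the mean. Slc34a1 stands alone above 3400 TPM, and Slc7a13 has the widest range, 146 to 393 TPM.

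Sodium is driven by the basolateral sodium-potassium pump. Its beta subunit Atp1b1 stood at 1423, 1356 and 1631 TPM and its regulatory subunit Fxyd2 at 4110, 3207 and 2904 TPM. The apical exchanger NHE3 (Slc9a3) was much lower, at 44.2, 45.6 and 38.7 TPM, beside the bicarbonate exit carrier Slc4a4 at 105, 109 and 149 TPM. Cytosolic carbonic anhydrase Car2 had a median of 661 TPM, and the membrane forms Car4, Car12 and Car14 had 230, 251 and 169 TPM. The potassium channel subunits Kcnj15 and Kcnj16 had medians of 450 and 403 TPM.

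The aquaporins were ordered in listed level, with 6 of 7 pairs of neighbours among the 8 detected members not overlapping in range. Another gene covers 100% of the Aqp2 span, 99.3% of the Aqp4 span and 38.7% of the Aqp6 span. The part of the counting in their levels was not tested. Aqp1, the constitutive water channel of the proximal tubule, came first at 313, 317 and 267 TPM, followed by Aqp2. Aqp3, the basolateral channel of the principal cell, had 92.8, 83.7 and 89.0 TPM, and the intracellular Aqp11 had 72.4, 58.1 and 51.6 TPM. Aqp7 had 11.2, 10.9 and 10.8 TPM, and Aqp6 of intercalated cells 6.78, 4.84 and 8.85 TPM. Aqp12 had 0 counts in every library, where 3 counts, the limit that a count of 0 allows, would be 0.217 TPM in the least sensitive library. Such limits cover counting error only.

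Receptor-mediated protein uptake rests on megalin with cubilin and amnionless. Cubn, cubilin, stood at 85.5, 98.1 and 145 TPM and its membrane anchor Amn at 213, 137 and 126 TPM. Folr1, the folate receptor of the brush border, had 568, 467 and 471 TPM. Dab2, the adaptor that binds megalin's tail, had 76, 41 and 167 counts, or 0.765, 0.600 and 1.28 TPM, with 0% of its windows shared with another transcript.

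Metabolic lists were detected in full. The gluconeogenesis and fructose list had 7 of 7 genes detected and a median member of 529 TPM. Pck1, the cytosolic enzyme that commits to glucose synthesis, stood at 1815, 1208 and 2069 TPM and was lowest in replicate 2. Fbp1 had 1770, 1603 and 1420 TPM, and G6pc, which releases free glucose, had 529, 461 and 598 TPM. The fatty acid oxidation list had 15 of 15 detected, a median member of 139 TPM and sums of 3065, 3004 and 2831 TPM. Acadm, the medium-chain acyl-CoA dehydrogenase, had a median of 505 TPM. Hadha and Hadhb, which encode the subunits of one enzyme complex, differed in level, with medians of 102 and 9.83 TPM.

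Calcium and magnesium handling was detected for 12 of 12 listed genes, though S100g made up 80.5% of their sum. The magnesium channel genes Trpm7 and Trpm6 had medians of 47.7 and 3.48 TPM. Slc8a1, the sodium-calcium exchanger of the basolateral membrane, stood at 9.15, 12.9 and 18.6 TPM, highest in replicate 3. The calcium-sensing receptor Casr had 14.7, 12.6 and 20.1 TPM. Of the genes of ammonia production, Glud1, glutamate dehydrogenase, had 376, 330 and 324 TPM, and Slc38a3, a glutamine carrier of the basolateral membrane, had 38.9, 18.2 and 37.6 TPM and was lowest in replicate 2.

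Among transcription factors of the kidney, 21 of 22 were detected, with a median member of 9.82 TPM, close to the 10.5 TPM of all detected genes. Hnf4a was the highest, and the bile acid receptor Nr1h4 followed at 124, 129 and 111 TPM. Pax8, a regulator of nephron formation that stays on in the adult tubule, had 37.8, 40.2 and 42.1 TPM, while Pax2 had 1.51, 1.18 and 1.18 TPM. Tfcp2l1, a factor of the distal nephron and collecting duct, had 52.6, 51.6 and 53.8 TPM. Ppara, which drives genes of fatty acid oxidation, had 34.4, 34.1 and 45.3 TPM. Wt1, a podocyte factor in the adult kidney, had 10.2, 10.4 and 19.95 TPM, highest in replicate 3. It is also a member of the podocyte list.

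Some genes that most cells use were listed near 0. Rps2, a protein of the small ribosomal subunit, had 0 counts in all 3 libraries, with 58.5% of its windows held by other transcripts. Rpl29 had 5, 4 and 9 counts with 41.0% of windows shared, and the glycolytic enzyme Gapdh had 99, 56 and 94 counts with 18.2% shared. Rplp0, another ribosomal protein, stood at 455, 379 and 321 TPM with 18.3% shared. Of 83 cytosolic ribosomal protein genes, 33, 34 and 32 lay under 10 TPM in replicates 1, 2 and 3. By median, 5 of the 33 under 10 TPM and 6 of the 50 at 10 TPM or more had over 50% of windows shared, so this measure did not separate them. Spans that overlap another gene were more frequent among list members under 1 TPM (24 of 56, 42.9%) than among those detected (95 of 292, 32.5%), without a test. Over all 44792 genes, 16493 had such a span, as did 4940 of the 12879 detected genes, so overlap was not rarer among detected genes at large. The low levels of Rps2, Rpl29, Gapdh, Mep1b, Scnn1b, Dab2, Hadhb, Fgfr1, Pdzk1 and Abcb1a are values of the deposited table. The part of the counting in them was not tested.

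Transcripts of cells outside the tubule were present at low levels. The podocyte list, for the epithelium of the glomerular filter, had 12 of 14 members detected and summed to 359, 338 and 627 TPM. Its members included podocalyxin (Podxl) at 105, 113 and 217 TPM and synaptopodin (Synpo) at 36.7, 29.8 and 57.8 TPM. The endothelial list had 17 of 18 detected and summed to 326, 302 and 604 TPM, with Emcn at 70.3, 65.6 and 111 TPM and Ehd3, a gene of glomerular capillaries, at 22.5, 25.3 and 74.5 TPM. Replicate 3 was the highest library for 12 of 12 detected podocyte genes and 16 of 17 detected endothelial genes, against 36.1% of all detected genes. Several tubule lists leaned the same way, with 11 of 15 intercalated cell genes, 6 of 8 distal convoluted tubule genes and 13 of 21 detected kidney transcription factors highest in replicate 3. The Kap level was lowest in that library. The proximal tubule list without Kap summed to 36089, 34232 and 33200 TPM, and 17 of the 39 detected members of the whole list were highest in replicate 3. The part of these differences in each other was not tested. The renin gene Ren1 of juxtaglomerular cells stood at 92.4, 47.5 and 109 TPM, and another gene covers 100% of its span.

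Fibroblast and mural markers had 12 of 14 detected with a median member of 5.04 TPM, and macrophage and myeloid markers 9 of 14 with 3.60 TPM. Col1a1, a fibrillar collagen chain, had 1.67, 1.19 and 1.59 TPM, and its partner chain Col1a2 had 8.96, 7.74 and 7.65 TPM. The highest member of the fibroblast and mural list was Tagln, with a median of 11.2 TPM. The macrophage marker Emr1 had 15, 5 and 24 counts. Other myeloid genes were higher: Cd74, an antigen presentation chain, had 71.9, 59.0 and 39.3 TPM, Lyz2, a lysozyme, had 14.8, 17.3 and 37.4 TPM, and the complement gene C1qa had 5.50, 5.02 and 5.70 TPM. Lymphocyte markers were detected for 3 of 14 genes and urothelial markers for 1 of 6. The defining T cell gene Cd3e stood at 0.226, 0.493 and 0.630 TPM, and the basal urothelial keratin gene Krt14 at 1, 0 and 0 counts. Cd8a, the highest member of the lymphocyte list by median, stood at 4.89, 4.61 and 0.455 TPM and was lowest in replicate 3. Among the list sums, red cell transcripts varied most: the 5 erythroid genes summed to 280, 93.0 and 371 TPM, lowest in replicate 2. Hba-a1 and Hba-a2 are near-identical copies, so the split between them is uncertain.

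Of 13 genes on a tubular injury list, 8 were detected and 5 reached 10 TPM, with a median member of 1.93 TPM. Havcr1, the injury marker KIM-1 of the proximal tubule, had 8, 10 and 13 counts, or 0.185, 0.337 and 0.229 TPM. Lcn2 stood at 1.97, 1.11 and 1.40 TPM and Sox9, a regulator of tubule repair, at 0.222, 0.228 and 0.297 TPM. In contrast Spp1, osteopontin, which the healthy distal nephron also makes, stood at 995, 871 and 890 TPM, and Clu, clusterin, at 163, 121 and 184 TPM. The keratin genes Krt7 and Krt8 had medians of 43.5 and 45.5 TPM, and the filament gene Vim 39.8 TPM. Of 13 cell division genes 6 were detected, with Mki67 at 0.489, 0.836 and 0.792 TPM and the replication clamp Pcna at 23.0, 30.5 and 13.1 TPM. Immediate early genes, which respond to tissue handling among other stimuli, were uneven: Fos stood at 3.31, 21.6 and 2.67 TPM and Fosb at 0.379, 5.47 and 0.0960 TPM, both highest in replicate 2. Dusp1, of the same class, did not share that pattern, at 23.1, 22.1 and 25.1 TPM. The Y-linked gene Eif2s3y had 49.0, 64.2 and 44.4 TPM and Xist, the transcript of the inactive X, 1, 8 and 3 counts in the 3 libraries.

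**Figure D5:**
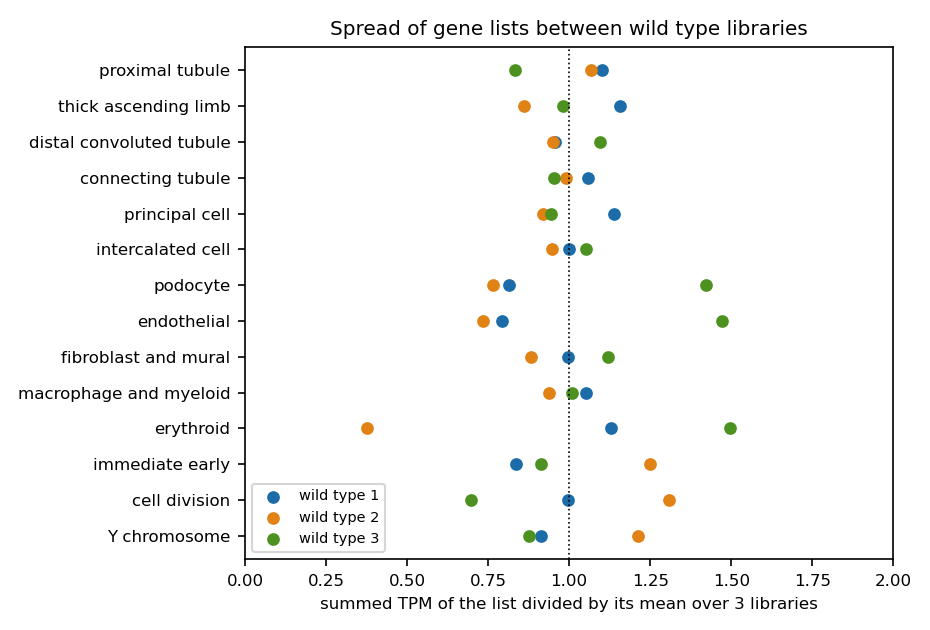
Summed TPM of each gene list in each wild type library, divided by the mean of that list over the 3 libraries; the dotted line is the mean. Replicate 3 is highest for the podocyte (627 TPM) and endothelial (604 TPM) lists, and replicate 2 is lowest for the erythroid list (93.0 TPM).

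Between animals most genes were close. Over 6590 genes with a mean of at least 100 counts and 10 TPM, the highest library exceeded the lowest by a median of 1.24-fold, and 159 genes (2.41%) exceeded 2-fold, of which 66 were highest in replicate 3. The common biological coefficient of variation estimated by edgeR was 0.185, and leaving out replicate 1, 2 or 3 gave 0.207, 0.202 and 0.132. Several of the widest ranges belonged to RNAs without a poly(A) tail. Rn18s-rs5, an 18S ribosomal RNA copy, stood at 293, 380 and 6303 TPM, and the small nuclear RNA Rn7sk at 1.96, 21.6 and 51.5 TPM. Genes that overlap an abundant neighbour formed another set: Ccdc152, whose span overlaps that of Sepp1, stood at 14.9, 23.2 and 0.977 TPM, and Pfn3, whose span overlaps that of Slc34a1, at 31.5, 18.3 and 2.64 TPM. Ccdc152 and Pfn3 lie on the minus strand, opposite Sepp1 and Slc34a1 on the plus strand. Both were lowest in replicate 3. Reads of overlapping genes may not be separable in the counts, but the overlap covers only 1.68% of the Ccdc152 span and 1.47% of the Pfn3 span. The part of the overlap in their levels was not tested.

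Among ordinary coding genes, Bcl6, a transcriptional repressor, stood at 5.36, 3.57 and 46.2 TPM and was 12.9-fold higher in replicate 3 than in replicate 2. Ces1g, a carboxylesterase of lipid metabolism, stood at 38.9, 72.9 and 9.64 TPM. The mitochondrial transfer RNAs TrnP and TrnE had 718, 1058 and 184 TPM and 651, 353 and 120 TPM, again lowest in replicate 3. Like ND6, they lie on the minus strand, whereas abundant transcripts such as CYTB and ND1 lie on the plus strand. Ccdc152, Pfn3, ND6, TrnP and TrnE thus lay on the strand opposite to that of abundant genes named here and were lowest in replicate 3. No other gene span overlaps TrnP or TrnE, and a neighbour covers only 2.7% of the ND6 span. The part of the strand in these differences between libraries was not tested. The others of the 15 genes with the widest ranges included Gm5506, annotated as coding, at 34.8, 21.4 and 3.86 TPM, beside pseudogenes and uncharacterised loci. Of the Gm5506 windows, 73.4% occurred in other transcripts, most of them in Eno1, and another gene covers 100% of its span. Its level is therefore uncertain.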

How the data were processed

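The authors deposited raw counts, whole numbers for each gene symbol, with a gene length and coordinates, per the file headers. Builds GRCm38 and mm10 are listed per the submitters' processing notes, as are HISAT2, StringTie, Trimmomatic 0.35 and cutadapt 1.9.1, none with a role. The sources used here do not give the counting program, its strand setting, its treatment of multiply matching reads, the annotation release or the definition of the gene length. The length lay within 10% of the longest GENCODE M21 transcript for 58.0% of detected genes with a match (95.5% of detected genes).

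Counts were divided by that length and scaled to TPM in each library with pandas 2.3.3, and levels are given per library or as mean ± SD (n = 3). No test was made, because no groups are compared. edgeR 4.0.16 in R 4.3.3 gave only TMM factors and the coefficient of variation. Depth was 22997852 to 44227191 counts. The scaling to TPM, the spread and the coefficient of variation were tested on simulated data. Names follow a rule: the 40 highest genes, the 25 highest solute carriers, the members of the marker and pathway lists, and the 15 genes of widest range among those with at least 100 counts and 10 TPM. Gapdh, Rps2, Rpl29, Rplp0, Xist Setd2, Myc and the low mitochondrial genes lie outside it and were named after their values were seen. Some genes of these sets are not reported here. The libraries and lists were chosen with earlier results of these data known. Of the 44792 symbols, 33875 matched RefSeq by name. Alternatives were nuclear genes only, no length scaling, an effective length, overlapping genes left out, other count filters and normalizations and each library left out.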

Additional observations from a re-analysis of the deposited data

How the results depend on the processing

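No paired analysis was possible because the values describe 1 group and come from no test. Of 72 alternatives, 45 stayed within 1 SD of the main value, or within 1.5 times of a count, and 27 moved; for the median fold, the SD is that of the 3 values that each leave out 1 library. Leaving out genes that overlap another gave 8569 detected genes, 48.99% of TPM in the 50 highest genes, 20.2% from the mitochondrial genome, 11.72% in the proximal tubule list, 0.1904% in lists of other cells and 2.141% in solute carriers. That setting drops a gene for any overlap, however short, and so drops ND1, COX1, ND2, ND5 and ND4. Nuclear genes alone gave 29.54% for the 50 highest genes, 12.54% for the proximal tubule list, 0.4157% for the thick ascending limb list, 0.2238% for other cells, 3.926% for solute carriers and a median fold of 1.248 between libraries. Without length scaling the same shares were 40.14%, 6.526%, 0.4597%, 0.2165% and 3.961%, and the mitochondrial genome held 24.97%. An effective length gave 2.264% for solute carriers. Leaving out 1 library at a time gave median folds of 1.132 to 1.143 between the remaining pair, from fewer libraries by construction.

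Alternatives chosen after seeing the data were GENCODE exon length, and a list's top member left out of the whole library before scaling. The former gave 60.57% for the 50 highest genes, 44.46% for the mitochondrial genome and 2.264% for solute carriers. The latter gave 3.615% for the proximal tubule without Kap and 0.124% for the thick ascending limb without Umod. The main values were 12879 detected genes, 53.65%, 36.62%, 7.974%, 0.2635%, 0.1403% and 2.489% of TPM and a median fold of 1.236. Apart from those built on other members or fewer samples, the cause was not tested. With 3 animals, spread is known only roughly, and levels of genes with copies or overlaps depend on a counting step not described in the sources used here.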
